A study of Mus musculus with 6 samples.

Results

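Monocytes are blood cells that arise in the bone marrow from myeloid progenitors and leave it to become macrophages or some dendritic cells. The genes described are 9 listed as monocyte lineage genes: F13a1, Mpeg1, Ly6c2, Lyz1, Lyz2, Ms4a6c, Ms4a7, Vcan and Sirpa. Not all are particular to monocytes, as their descriptions below say. Each was read from a probe set that the platform annotation gives to exactly 1 gene symbol, which 8 of the 9 had, among 19938 such genes on the array. Ly6c2 had none of its own, because its probe sets are annotated to Ly6c1 as well, so its own level is not analysed here. The values of the shared probe sets, which were lower in the knockdown, are given at the end without a test. Ms4a7 and Vcan were too dim to be tested, which left 6 of the 13956 genes that were.

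The cells came from the bone marrow of male C57BL6 mice, 4 weeks old, that were either wild type (3 mice) or carried a knockdown of MYB (3 mice). They were sorted by flow cytometry for Kit, the stem cell factor receptor of progenitors, for CD11b, an integrin chain of myeloid cells encoded by Itgam, and for absent or low lineage markers. Each mouse gave 1 Affymetrix array of total RNA, and the series title calls the cells myeloproliferative. The labels give neither the way in which MYB was lowered nor the lineage markers of the gate.

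Monocyte development runs from a progenitor shared with neutrophils and depends on PU.1, IRF8 and the receptor of CSF1. Classical monocytes carry Ly6C and CCR2 on their surface, and non-classical ones carry CX3CR1 and need the nuclear receptor NR4A1. MYB acts earlier, in progenitors, where it keeps up proliferation and the genes of immature myeloid cells.

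The promoters of the 2 genes that fell, F13a1 and Mpeg1, and of the lysozyme pair are shown because the sequences let their starts be compared. Windows were found in RefSeq (GRCm38.p6) for 8 of the 9 genes, and the 250 bases before the start are printed, 5′ to 3′ on the gene's own strand. Capitals mark the core letters of the MYB recognition motif, AACNG, on either strand.
F13a1 outer start, chr13:37050245-37050494, minus strand: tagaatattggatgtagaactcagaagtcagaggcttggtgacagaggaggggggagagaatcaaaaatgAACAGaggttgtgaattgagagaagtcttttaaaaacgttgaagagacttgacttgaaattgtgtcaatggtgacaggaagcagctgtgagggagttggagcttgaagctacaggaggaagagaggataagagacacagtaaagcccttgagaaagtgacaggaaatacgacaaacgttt
F13a1 inner start, chr13:37049214-37049463, minus strand: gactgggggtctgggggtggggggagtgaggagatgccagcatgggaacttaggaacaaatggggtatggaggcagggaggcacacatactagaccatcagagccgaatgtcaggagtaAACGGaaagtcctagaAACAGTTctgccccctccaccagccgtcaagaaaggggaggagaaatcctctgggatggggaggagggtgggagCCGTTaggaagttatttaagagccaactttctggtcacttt
Mpeg1, chr19:12460520-12460769, plus strand: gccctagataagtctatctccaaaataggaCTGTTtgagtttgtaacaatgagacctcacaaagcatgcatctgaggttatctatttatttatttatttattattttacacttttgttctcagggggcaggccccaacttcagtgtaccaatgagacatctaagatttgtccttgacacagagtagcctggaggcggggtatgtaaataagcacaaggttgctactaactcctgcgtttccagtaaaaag
Lyz1, chr10:117292869-117293118, minus strand: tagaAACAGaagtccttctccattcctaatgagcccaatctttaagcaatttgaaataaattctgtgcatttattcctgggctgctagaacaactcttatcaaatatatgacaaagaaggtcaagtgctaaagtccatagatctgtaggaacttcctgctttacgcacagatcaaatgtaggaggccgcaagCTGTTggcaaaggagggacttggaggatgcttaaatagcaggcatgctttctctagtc
Lyz2, chr10:117282273-117282522, minus strand: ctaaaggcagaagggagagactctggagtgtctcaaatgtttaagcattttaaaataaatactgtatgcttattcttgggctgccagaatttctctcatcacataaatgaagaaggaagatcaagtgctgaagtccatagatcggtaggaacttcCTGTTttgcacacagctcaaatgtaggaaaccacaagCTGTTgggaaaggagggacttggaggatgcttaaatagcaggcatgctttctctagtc
RefSeq lists 2 starts for F13a1. The outer window held 1 match to AACNG and the inner one held 4, of which a pair overlaps on opposite strands, while Mpeg1 held 1 and each lysozyme gene 2. Of all 32851 promoter windows of this length 74.2% held a match, so its presence sets none of these genes apart. The letters GAGGAA, the core of many PU.1 sites, searched on both strands, were found in the outer F13a1 window (1 match) and in none of the other 4, against 23.3% of all windows. A match is a run of letters and not a known site. Lyz1 and Lyz2 are neighbours on chromosome 10, and the last 50 bases before their starts were identical. Over the last 100 bases 92 were the same, and over all 250, compared position by position with no gaps, 152.

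All values are log2 expression values as the authors deposited them, and a difference is knockdown minus wild type with the standard error (SE) of limma's fit over all genes tested. A gene is called changed where its p, adjusted by the Benjamini-Hochberg method over all those genes, is under 0.05. The array medians lay between 5.94 and 5.99 in the wild type mice and between 5.87 and 5.90 in the knockdown mice. Every knockdown median was thus below every wild type median. Knockdown mouse 3 stood apart, with correlations over all probe sets of 0.977 and 0.984 with the other 2 knockdown arrays, where those of the wild type arrays with each other were 0.993 to 0.995. Myb was 11.47, 11.46 and 11.46 in the wild type mice and 11.26, 11.08 and 11.14 in the knockdown mice, so that it was lower in each knockdown mouse, by 0.30 ± 0.06 (limma, adjusted p = 0.0196). Leaving out any 1 wild type mouse, or the knockdown mouse 2, ended its call (adjusted p = 0.0777 to 0.0963). Of the sort markers, Kit differed by -0.27 ± 0.08 (limma, adjusted p = 0.06) and Itgam by -0.39 ± 0.17 (adjusted p = 0.202). Kit was called lower without knockdown mouse 3 (-0.28, adjusted p = 0.0145). Itgam was called lower without knockdown mouse 1 (-0.59, adjusted p = 0.0239), and without knockdown mouse 3 it differed by -0.20 (adjusted p = 0.198). In all 11.6% of genes were called, 5.48% lower and 6.12% higher in the knockdown. After each array was centred on its median, 593 genes were called lower and 1433 higher, in place of 765 and 854.

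Of the 6 monocyte genes tested, F13a1 and Mpeg1 fell in the knockdown and none of the other 4 was called. These 2 are also the only ones of the 6 whose groups did not overlap with the knockdown lower, a pattern seen for 14.4% of all genes tested. None had groups apart with the knockdown higher, as 19.9% of genes did, so that 34.3% had groups apart in either direction. The differences of Lyz1, Lyz2, Ms4a6c and Sirpa lay between -0.20 and -0.01 on the log2 scale. RNA of a sorted fraction was measured, so fewer cells of a type and less RNA per cell cannot be told apart.

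**Figure D1:**
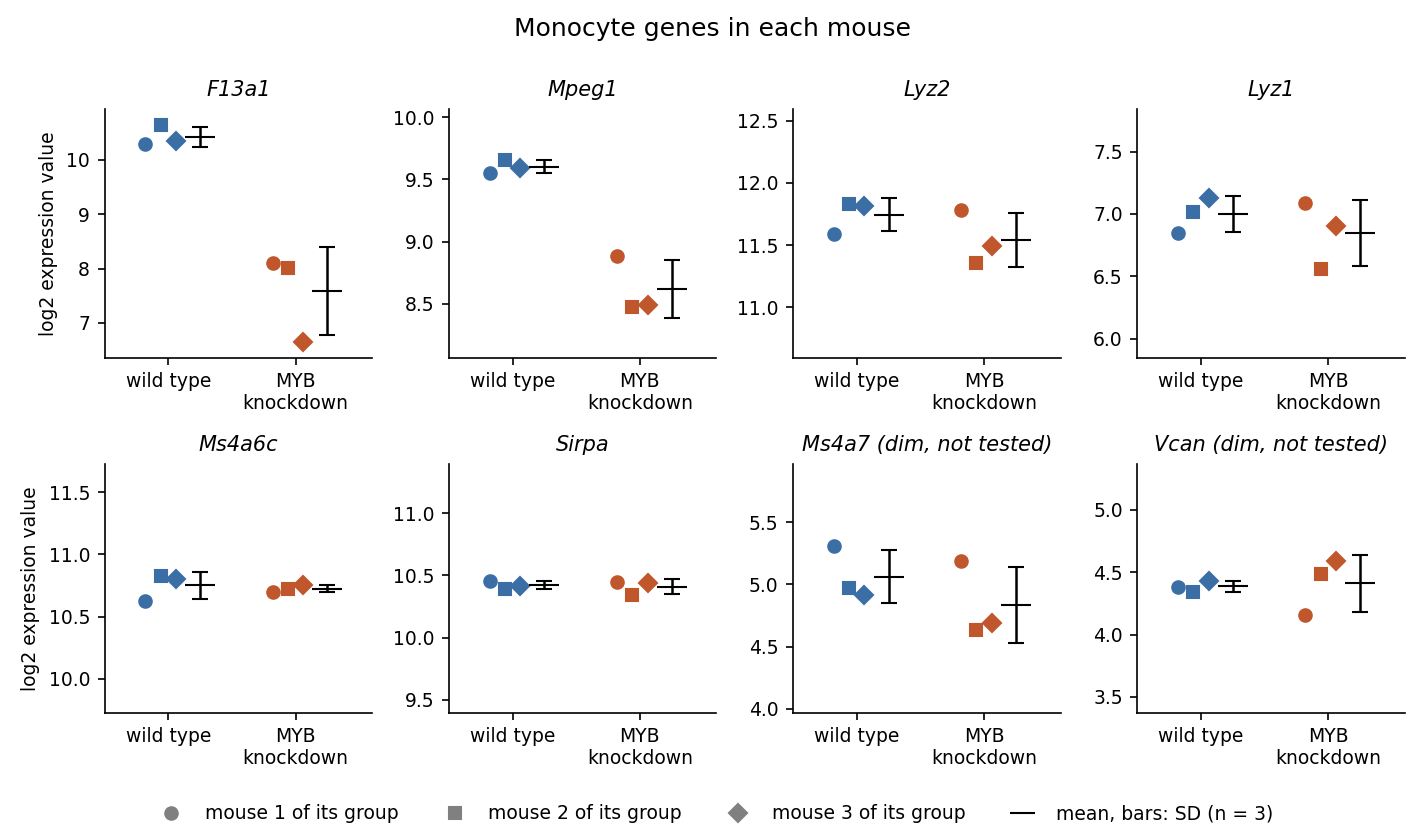
Log2 expression value of each monocyte gene in every mouse, with wild type mice in blue and knockdown mice in orange and the group mean with its SD (n = 3) beside the points. All knockdown values of F13a1 and Mpeg1 lie below all wild type values, and the groups of the other 6 genes overlap.

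F13a1 encodes the A subunit of coagulation factor XIII, the transglutaminase that crosslinks fibrin, which is made by monocytes and macrophages and by megakaryocytes. Its log2 value was 10.29, 10.64 and 10.35 in the wild type mice and 8.09, 8.01 and 6.66 in the knockdown mice. The lowest wild type value lay well above the highest knockdown value, and knockdown mouse 3 was the lowest of all. The group means were 10.43 ± 0.19 (SD, n = 3) and 7.59 ± 0.81 (SD, n = 3). F13a1 fell by 2.84 ± 0.34 (SE), or 7.16-fold (limma, adjusted p = 0.00137), with a 95% interval of 4.17-fold to 12.3-fold lower. Only 0.136% of the genes tested had a larger fall. Without knockdown mouse 3 the difference was -2.37 ± 0.10 (adjusted p = 1.95e-06), and in the 6 fits that each left out 1 array it lay between -3.09 and -2.37 and was called each time. Ly86, an accessory protein of a Toll-like receptor, is the next protein-coding gene on one side of F13a1 and differed by -0.13 ± 0.10 (adjusted p = 0.476), though it was called lower without knockdown mouse 3 (-0.21, adjusted p = 0.0441).

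Mpeg1 encodes perforin-2, a pore-forming protein of macrophages that acts on engulfed bacteria. It was 9.55, 9.66 and 9.59 in the wild type mice and 8.89, 8.48 and 8.49 in the knockdown mice. Knockdown mouse 1 was the highest of its group and still lay below every wild type mouse. The means were 9.60 ± 0.05 (SD, n = 3) and 8.62 ± 0.23 (SD, n = 3). Mpeg1 fell by 0.98 ± 0.13, or 1.97-fold (limma, adjusted p = 0.00194), with a 95% interval of 1.62-fold to 2.41-fold lower. It was called in all 6 fits that left out 1 array, with differences between -1.12 and -0.91, and without knockdown mouse 3 the difference was -0.92 ± 0.11 (adjusted p = 0.000408).

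**Figure D2:**
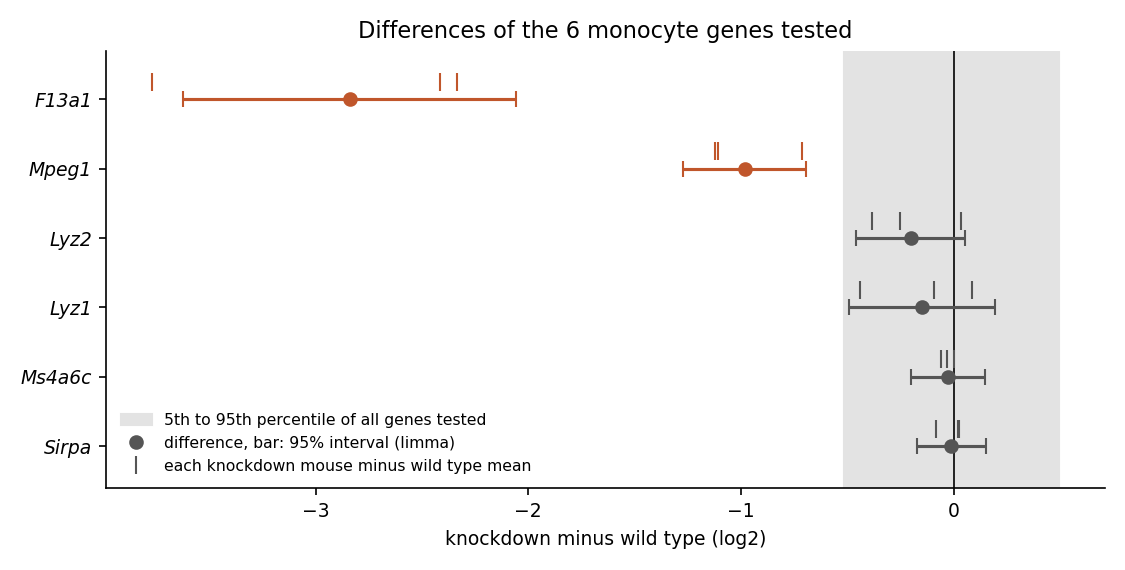
Knockdown minus wild type difference (log2) of the 6 monocyte genes tested, with the 95% interval of limma's fit as a bar, each knockdown mouse minus the wild type mean as a tick, and the 5th to 95th percentile of all genes tested (-0.51 to 0.50) shaded. F13a1 (-2.84) and Mpeg1 (-0.98) lie left of the shaded range, and the other 4 lie within it.

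The lysozymes break down bacterial cell walls; Lyz2 is the form of myeloid cells, carried by both neutrophils and macrophages, and Lyz1 is the form of Paneth cells in the gut. Lyz2 was 11.59, 11.83 and 11.81 in the wild type mice and 11.78, 11.36 and 11.49 in the knockdown mice. The groups overlapped, since knockdown mouse 1 lay above wild type mouse 1. The difference was -0.20 ± 0.11 (limma, adjusted p = 0.316), with a 95% interval from -0.46 to 0.05, which leaves room for a fall of up to 1.37-fold. Lyz1 was 6.85, 7.02 and 7.13 in wild type and 7.08, 6.56 and 6.90 in knockdown. Its groups overlapped too, and it differed by -0.15 ± 0.15 (adjusted p = 0.619), with an interval from -0.49 to 0.20. For both lysozymes wild type mouse 1 was the lowest of its group and knockdown mouse 2 the lowest of all. Lyz1 and Lyz2 are close relatives, and whether their probes separate them was not tested. With array weights, which count arrays that stand apart for less, Lyz2 was called lower (difference -0.29, adjusted p = 0.0306). The other 16 alternatives did not call it (adjusted p from 0.0607 to 0.643).

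Ms4a6c and Ms4a7 belong to the MS4A family of membrane proteins with 4 membrane-spanning segments, named for CD20. Ms4a6c was 10.63, 10.83 and 10.80 in the wild type mice and 10.70, 10.72 and 10.76 in the knockdown mice. All knockdown values fell within the wild type range, and the difference was -0.03 ± 0.08 (limma, adjusted p = 0.883), with a 95% interval from -0.20 to 0.15. Ms4a7 was 5.31, 4.97 and 4.91 in wild type and 5.18, 4.63 and 4.69 in knockdown, so its groups overlapped. It was among the dimmest 30% of genes, whose means lay below 5.11, and was not tested. With no filter on dim genes it differed by -0.23 ± 0.16 (adjusted p = 0.541).

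Sirpa encodes SIRPα, an inhibitory receptor of myeloid cells that binds CD47 and restrains phagocytosis. It was 10.45, 10.39 and 10.41 in the wild type mice and 10.45, 10.34 and 10.44 in the knockdown mice. The groups overlapped closely, with a difference of -0.01 ± 0.07 (limma, adjusted p = 0.956) and a 95% interval from -0.17 to 0.15, or from a 1.13-fold fall to a 1.11-fold rise. Only 5.02% of the genes tested had a smaller absolute difference. The signs of Sirpa and Ms4a6c have no meaning at this precision, and both turned positive (0.064 and 0.048) after median centring of the arrays.

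Vcan encodes versican, a proteoglycan that binds hyaluronan and is secreted by classical monocytes among many other cells. It was 4.38, 4.34 and 4.43 in the wild type mice and 4.16, 4.49 and 4.59 in the knockdown mice. Of these values 5 lay below the lower quartile of their own array, which was between 4.46 and 4.58, and that of knockdown mouse 3 just above it. No test was made. With no filter the difference was 0.02 ± 0.11 (limma, adjusted p = 0.958), and a value this close to the floor of the array can hide a change.

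**Figure D3:**
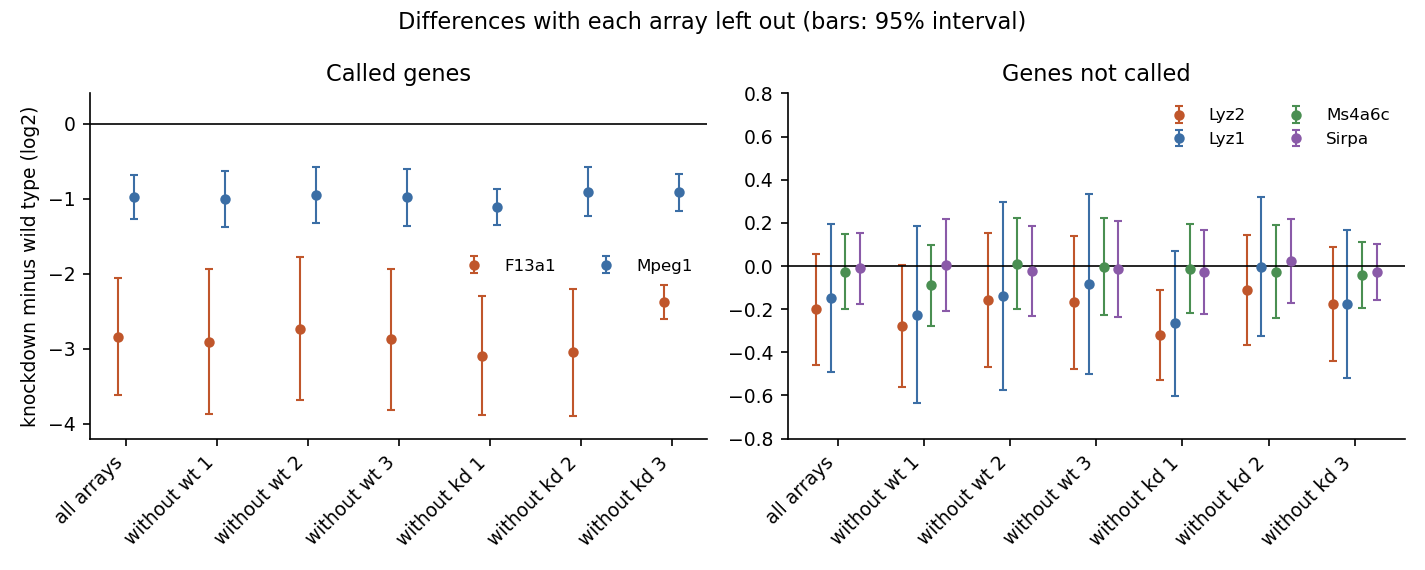
Knockdown minus wild type difference (log2) of the 6 monocyte genes tested, on all arrays and with each wild type (wt) or knockdown (kd) mouse left out, with 95% intervals as bars. F13a1 and Mpeg1 stay below 0 in all 7 fits, while the differences of the other 4 lie between -0.32 and 0.02.

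The next genes of the monocyte programme came from 3 lists of transcription factors, receptors, and secreted, lysosomal and other effector genes, written with earlier results of these arrays known. Of the 46 tested, 8 rose (17.4%) and 11 fell (23.9%), against 6.12% and 5.48% of all genes, and their median difference was -0.07, against 0.02 over all genes. After median centring 9 rose and 7 fell, where 1433 rose and 593 fell over all genes. The falls numbered 7 when wild type mouse 1 was left out, and 6 when wild type mouse 2, wild type mouse 3 or knockdown mouse 2 was. The rises numbered 5 when wild type mouse 3 was left out and 14 when knockdown mouse 3 was. Over all genes the rises then numbered 355 and 2397, in place of 854.

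Of the 11 transcription factors 1 rose and limma called 0 lower, where 2 of the lower ones had an unadjusted p under 0.05. Over all genes tested 6.12% rose and 5.48% fell. Nr4a1, the factor of non-classical monocytes, was 6.39, 6.40 and 6.31 in wild type and 6.96, 6.75 and 6.94 in knockdown and rose by 0.52 ± 0.10 (limma, adjusted p = 0.0138). The call was lost without wild type mouse 1, 2 or 3 (adjusted p = 0.0686, 0.0632 and 0.0845). Irf5, an interferon regulatory factor of inflammatory macrophages, differed by 0.62 ± 0.17 (adjusted p = 0.0528) and passed without knockdown mouse 1 (0.0374) or 3 (0.00973). Pou2f2, the octamer factor OCT2, differed by 0.74 ± 0.26 (adjusted p = 0.11) and passed without the same mice (0.0373 and 0.0143). Zeb2, a zinc finger factor of monocytes, differed by -0.28 ± 0.11 (adjusted p = 0.15). Irf8, the factor that directs progenitors to the monocyte fate, differed by -0.25 ± 0.10 (adjusted p = 0.18) and Klf4, which acts beside it, by -0.07 ± 0.16 (adjusted p = 0.866). Without knockdown mouse 3 Klf4 was called lower (difference -0.26, adjusted p = 0.0439). With array weights 3 transcription factors were called higher and 2 lower. Over all genes 2351 were then called higher and 1561 lower, in place of 854 and 765. The 2 lower factors were Zeb2 (difference -0.25, limma, adjusted p = 0.0269) and Irf8 (difference -0.25, adjusted p = 0.0455).

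Of the 17 receptors tested 2 rose and 4 fell, against 6.12% and 5.48% of all genes tested. The falls numbered 6 when knockdown mouse 1 or 3 was left out (809 and 1397 over all genes, in place of 765). The rises numbered 4 without knockdown mouse 3 (2397 over all genes, in place of 854). They numbered 1 without wild type mouse 1, wild type mouse 3 or knockdown mouse 2 (296, 355 and 431 over all genes). Tlr4, the receptor of lipopolysaccharide, was 7.70, 7.09 and 7.24 in wild type and 6.04, 5.69 and 5.40 in knockdown and fell by 1.63 ± 0.20 (limma, adjusted p = 0.0015). Fcgr3, a low-affinity IgG receptor, fell by 1.04 ± 0.16 (adjusted p = 0.00425) and Clec12a, an inhibitory lectin receptor, by 0.93 ± 0.10 (adjusted p = 0.000677). Fcgr1, the high-affinity IgG receptor, was 5.98, 5.97 and 5.78 in wild type and 6.62, 6.69 and 6.71 in knockdown and rose by 0.76 ± 0.10 (adjusted p = 0.00199). The other call upward was Cx3cr1, the fractalkine receptor, with a rise by 0.49 ± 0.10 (adjusted p = 0.0194) that ended when wild type mouse 1, wild type mouse 3 or knockdown mouse 2 was left out (adjusted p = 0.113, 0.11 and 0.0674). Csf1r, the receptor of CSF1, differed by 0.05 ± 0.20 (adjusted p = 0.925). Ccr2, the chemokine receptor that lets classical monocytes leave the marrow, differed by 0.16 ± 0.16 (adjusted p = 0.607); without knockdown mouse 3 it was called higher (difference 0.36, adjusted p = 0.00253). Receptors of this list were thus lower, higher and near 0 in the same arrays. Csf1r, Ccr2 and Cx3cr1 were not among those called lower.

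Of the 18 effector genes 5 rose and 7 fell, against 6.12% and 5.48% of all genes tested. The falls numbered 3 when wild type mouse 1 was left out, 2 when wild type mouse 2, wild type mouse 3 or knockdown mouse 2 was, and 3 after median centring or with a minimum of 1.5-fold, while 4 to 7 rose in all these fits and those without the other mice. S100a4, a calcium-binding protein, was 5.997, 5.909 and 6.034 in wild type and 7.60, 7.79 and 7.73 in knockdown and rose by 1.73 ± 0.10 (limma, adjusted p = 4.08e-05). Tgfbi, a matrix protein induced by TGF-beta, rose by 1.39 ± 0.12 (adjusted p = 0.000349) and Lgals3, galectin-3, by 1.15 ± 0.16 (adjusted p = 0.00305). F10, coagulation factor X, was 9.08, 8.76 and 8.60 in wild type and 7.20, 7.37 and 7.18 in knockdown and fell by 1.56 ± 0.14 (adjusted p = 0.000353). Ctss, the lysosomal protease cathepsin S, rose by 0.51 ± 0.13 (adjusted p = 0.0423), and its call was lost in 5 of the 6 fits with 1 array left out, all but the one without knockdown mouse 3 (adjusted p = 0.0971 to 0.162).

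**Figure D4:**
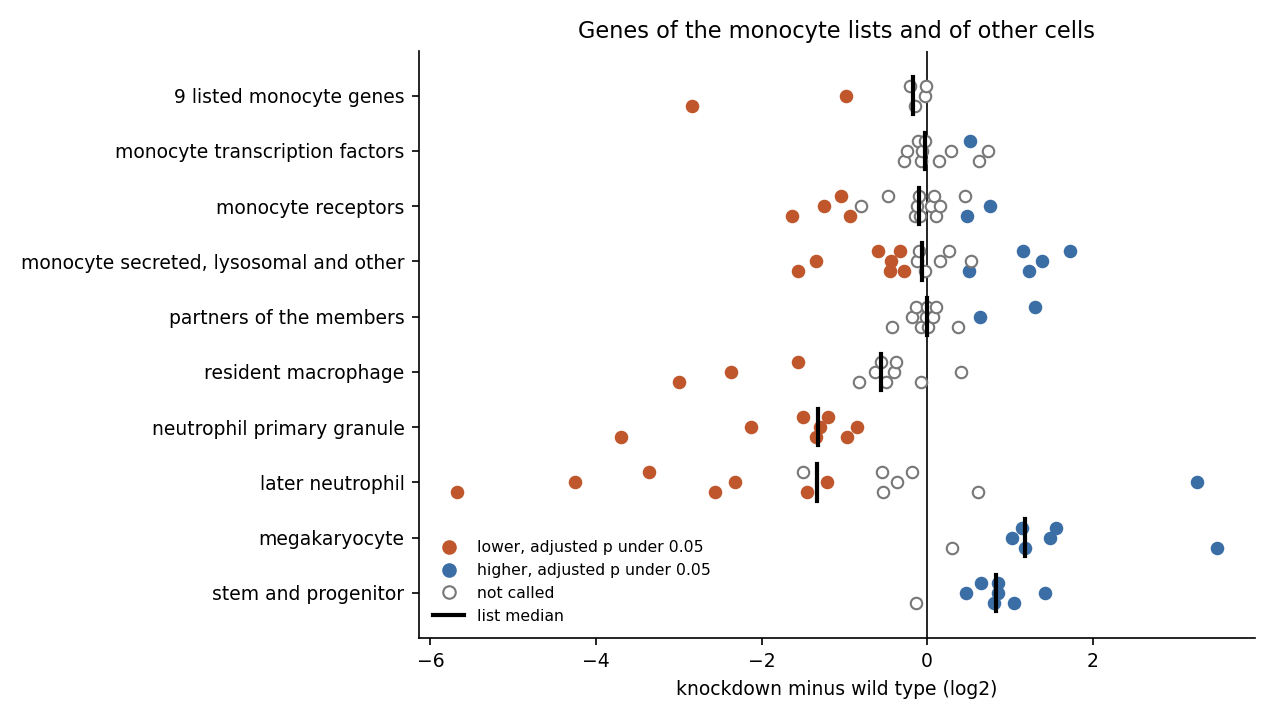
Knockdown minus wild type difference (log2) of every tested gene in the listed monocyte genes, 4 lists around them and 5 lists of other cells, with genes called lower in orange, genes called higher in blue, the others open and the list median as a black bar. The monocyte effector list holds 7 genes called lower, a count of 2 or 3 when any 1 wild type mouse or knockdown mouse 2 is left out, and 5 called higher. All 8 primary granule genes lie below 0. Among all genes tested 5.48% were called lower and 6.12% higher. With those mice left out in turn, 367 to 480 of all genes were called lower, in place of 765.

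Partners and relatives of the monocyte genes were listed apart. Of 12 partners tested 2 rose and limma called 0 lower, where 1 of the lower ones had an unadjusted p under 0.05. Among all genes tested 6.12% rose and 5.48% fell. The rises numbered 4 when knockdown mouse 3 was left out and 1 when any other mouse was. Over all genes the rises then numbered 2397 and 296 to 778, in place of 854. Tgm1, a transglutaminase related to F13a1, was 6.91, 6.54 and 6.91 in wild type and 8.08, 8.31 and 7.89 in knockdown and rose by 1.31 ± 0.15 (limma, adjusted p = 0.00111), opposite to F13a1. Tlr2, a receptor that versican can engage, rose by 0.64 ± 0.15 (adjusted p = 0.0333), a call that ended when any mouse but knockdown mouse 3 was left out (adjusted p = 0.0746 to 0.142). Tgm2, tissue transglutaminase, differed by 0.37 ± 0.10 (adjusted p = 0.0546) and passed without knockdown mouse 3 (0.00973). Fgr, a SRC-family kinase of phagocytes, differed by -0.42 ± 0.13 (adjusted p = 0.0857) and passed without the same mouse (0.0352). The ligand of SIRPα, Cd47, and its phosphatases Ptpn6 and Ptpn11 were not called, with differences of 0.07 ± 0.06, 0.11 ± 0.08 and -0.08 ± 0.10 (adjusted p = 0.555, 0.452 and 0.699). Without knockdown mouse 3 Ptpn6 was called higher (0.17, adjusted p = 0.0495). They are named for their role beside Sirpa, which also lay near 0.

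In the MS4A family outside the listed genes, 8 of 15 were bright enough to test, of which 2 fell and 1 rose. The shares over all genes tested were 5.48% and 6.12%. Ms4a3, a marker of granulocyte and monocyte progenitors, fell by 0.97 ± 0.07 (limma, adjusted p = 0.000174). Ms4a6b, a relative of Ms4a6c, was 8.28, 8.10 and 8.30 in wild type and 7.64, 7.68 and 7.40 in knockdown and fell by 0.65 ± 0.12 (adjusted p = 0.00986), and Ms4a4c rose by 0.62 ± 0.14 (adjusted p = 0.0236). The call of Ms4a6b was lost without wild type mouse 1 or 3 (adjusted p = 0.0636 and 0.0613) and that of Ms4a4c without any 1 wild type mouse (0.0869 to 0.113). Whether the change of Ms4a6b differs from that of Ms4a6c was not tested. Of 8 other Ly6 genes and 3 relatives or link proteins of versican, limma called 0, with 1 gene, Ly6g, at an unadjusted p under 0.05 (means 9.86 ± 1.04 and 8.35 ± 0.97, SD, n = 3; limma, adjusted p = 0.141), which passed without knockdown mouse 1 (0.0369). Spaca3 was the only other lysozyme relative bright enough to test (difference 0.08 ± 0.13, adjusted p = 0.788).

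The genes most like a listed gene were found by the mean absolute difference between log2 profiles over the 6 arrays, each set to its own wild type mean. For F13a1 they were Abca13, an ABC transporter (0.24), Slc28a2, a nucleoside transporter (0.29), and Olfml2b, an olfactomedin-like protein (0.30). Abca13 differed by -2.54, Slc28a2 by -3.09 and Olfml2b by -2.80, and all 3 were called. For Mpeg1 they were F5, coagulation factor V (0.035), Sort1, sortilin (0.062), and Dok3, an adaptor of immune receptors (0.071), with differences of -0.97, -0.88 and -1.08, all called. For Lyz2, the third by p, they were Kif1b (0.054), Tnfaip2 (0.057) and Cdca2 (0.058), none of which was called. This measure grows with the size of a change, so its values are not compared between the listed genes. The genes were picked for likeness on these same arrays, so their similar differences and calls follow from the choice.

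**Figure D5:**
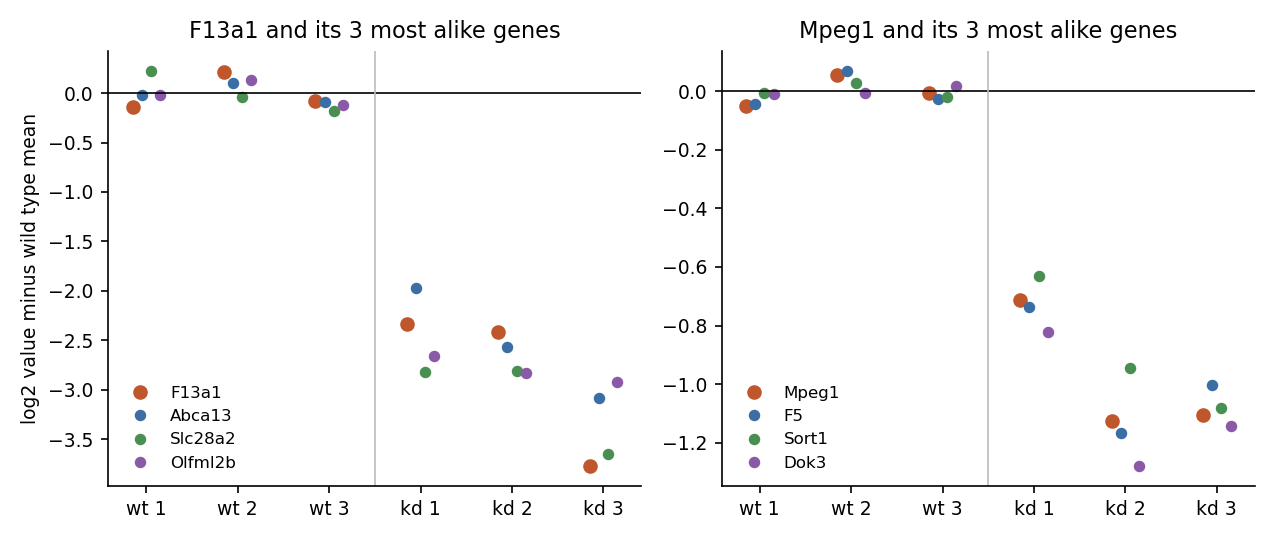
Log2 value minus the wild type mean of F13a1 (left) and Mpeg1 (right) and of the 3 genes of most alike profile, in the 3 wild type (wt) and 3 knockdown (kd) mice. Abca13 and Slc28a2, like F13a1, are lowest in knockdown mouse 3, while F5, Sort1 and Dok3 are, like Mpeg1, highest among the knockdown mice in mouse 1. The genes were picked for this likeness.

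Genes of other cells were also called in these arrays, where 5.48% of all genes tested were called lower and 6.12% higher. Sorts on lineage markers commonly remove mature T, NK, B and erythroid cells, but the markers of this gate are not named in the labels. All 8 genes of neutrophil primary granules fell, among them Elane by 3.69 ± 0.08, and their mean log2 value was 11.28 to 11.50 in the wild type mice and 9.71 to 9.78 in the knockdown mice. Of 14 later neutrophil genes 7 fell and 1 rose (means 9.75 to 10.28 and 8.35 to 9.09), and of 11 resident macrophage genes 3 fell (6.90 to 7.05 and 5.73 to 6.39), with Vcam1 lower by 3.00 ± 0.24. Falls were also called for 5 of 7 eosinophil genes (8.38 to 8.58 and 5.91 to 6.75), for 4 of 6 basophil and mast cell genes, where 1 other rose (7.89 to 8.32 and 7.06 to 7.33), and for 4 of 8 B lymphoid genes (6.60 to 7.15 and 6.03 to 6.29). In contrast 6 of 7 megakaryocyte genes (7.07 to 7.23 and 8.55 to 8.65) and 7 of 8 stem and progenitor genes (7.83 to 7.96 and 8.59 to 8.76) rose. Megakaryocytes also make F13a1, which fell while 6 of these 7 rose, with Pf4 higher by 1.56 ± 0.16. Of 12 dendritic genes 4 rose and 2 fell (7.51 to 7.66 and 7.73 to 7.94), of 8 erythroid genes 1 rose (8.05 to 8.37 and 7.97 to 8.79), and of 6 T and NK genes 1 rose and 1 fell (5.87 to 6.09 and 5.93 to 6.27). Some of these counts changed when 1 mouse was left out, as did the counts over all genes. Without a wild type mouse or knockdown mouse 2, 296 to 431 of all genes rose and 367 to 480 fell. Without knockdown mouse 3 these were 2397 and 1397, and without knockdown mouse 1 they were 778 and 809, in place of 854 and 765. The macrophage falls numbered 6 without knockdown mouse 1 or 3, and the B lymphoid falls 2 without wild type mouse 2, wild type mouse 3 or knockdown mouse 2 and 6 without knockdown mouse 3. The dendritic rises numbered 2 without wild type mouse 1 or 2, and the dendritic falls 0 without wild type mouse 2, wild type mouse 3 or knockdown mouse 2 and 4 without knockdown mouse 3. The later neutrophil rises numbered 2 without knockdown mouse 3. The basophil and mast cell rise was lost without wild type mouse 2, wild type mouse 3 or knockdown mouse 2, and of the 6 fits with 1 mouse left out the erythroid list had its 1 rise only in those without wild type mouse 2 or knockdown mouse 3. All 8 primary granule genes were called lower in each of the 17 alternatives. The macrophage marker Cd163, the B lymphoid Cd79a and the T cell Cd3d and Cd3g were among those too dim to test. The levels in brackets are array means over every gene of a list with a probe set, those too dim to test included. They thus cover 12 macrophage, 8 basophil and mast cell, 9 B lymphoid, 13 dendritic and 8 T and NK genes. The part of these cells in the changes of the monocyte genes was not tested.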

How the data were processed

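The authors deposited log2 values, 1 for every probe set on every array. The submitters' processing notes name Affymetrix Expression Console and limma; how each was set is not given in the sources used here. That the scale is log2 was inferred from the range of values, 1.83 to 13.3. Near the top of that range arrays compress differences. Arrays carry no read depth, so their number limits the precision. Probe sets with 1 symbol in the platform annotation (21789 of 35556; 1621 had several and 12146 were not in that table) were used, the one of highest mean over the 6 arrays per gene, and the 30% of genes of lowest mean were left out. Of the 21789, 21698 were matched by gene number to RefSeq (GRCm38.p6), with 0 symbols changed.

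The groups were compared with limma 3.58.1 in R 4.3.3 (lmFit, eBayes with trend, no covariates), with Benjamini-Hochberg adjustment over 13956 genes and a threshold of 0.05. Intervals are at 95% and not adjusted. The fit was tested on simulated data. Each array is a separate mouse per the labels, and p-values thus reflect spread among animals. No batch is given in the sources used here.

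The monocyte genes, the other lists (roles, partners, families and other cells) and the rule for named genes were chosen with earlier results of these data known. The rule named every monocyte gene, Myb, Kit and Itgam, the 4 of smallest p in each role list, called family members, up to 2 genes per list of other cells, and the 3 most alike genes of the 3 monocyte genes of smallest p. Irf8, Klf4, Csf1r, Ccr2, Cx3cr1, Ctss and Ly86 were fixed as monocyte markers. Ly6g, Cd163 and Cd79a were fixed as markers of other cells, and not all markers so fixed are named here. These 3, with Cd47, Ptpn6, Ptpn11, Spaca3, Cd3d and Cd3g, were picked for mention after their values were seen. No set test was made. The alternatives were a replicate block, each array left out, quantile normalization, median centring, no filter or one at 50%, averaged probe sets per gene, a robust eBayes and one without trend, weighting of arrays, an adjusted p of 0.1, and a change of at least 1.5-fold.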

Additional observations from a re-analysis of the deposited data

How the results depend on the processing

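The calls of F13a1 and Mpeg1 were kept under all 17 alternatives, with adjusted p between 1.7e-07 and 0.0124 for F13a1 and between 5.95e-06 and 0.0176 for Mpeg1. With array weights 3 of the monocyte genes were called lower, Lyz2 being the third, and under the other 16 alternatives 2 were. With array weights 1561 of all 13956 genes tested were called lower, in place of 765. The sign of Ms4a6c turned under median centring (0.048), and with 1 array left out its difference lay between -0.090 and 0.010; that of Sirpa turned likewise (0.064; -0.030 to 0.024). Neither was called in any fit. Myb was called in 10 of 17 alternatives and Kit in 5; the calls of Myb were lost, beside the fits with fewer mice, under median centring (-0.23, adjusted p = 0.074), without the trend (adjusted p = 0.0662) and with a minimum of 1.5-fold.

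The 854 higher and 765 lower genes became 1433 higher under median centring, 2351 and 1561 with array weights, 1374 higher at an adjusted p of 0.1, and 407 and 508 with a minimum of 1.5-fold. With 1 array left out the counts ranged from 296 to 2397 higher and from 367 to 1397 lower. Of the monocyte transcription factors, receptors and effectors, 7 fell under median centring, 14 rose with array weights, and 5 rose and 7 fell with a minimum of 1.5-fold; with 1 array left out 5 to 14 rose and 6 to 15 fell. Among the fits with 1 array left out, counts over all genes were highest without knockdown mouse 3 and lowest without a wild type mouse. A minimum fold makes fewer calls and a looser threshold more by construction; for the rest the cause was not tested.

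The replicate numbers name different mice and do not pair them: the deviations of same-numbered mice from their group means correlated at 0.29, -0.19 and -0.08, and 2 of 6 arrays correlated best with the array of the same number. With the replicate block 746 genes were higher and 726 lower, F13a1 and Mpeg1 were again the only monocyte genes called, and Irf5 and Pou2f2 passed (adjusted p = 0.0312 and 0.0484).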

Other observations

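The array holds 2 probe sets that the platform annotation gives to Ly6c2 and Ly6c1 together, so their signal belongs to neither gene alone. The first was 12.19, 12.06 and 12.13 in the wild type mice and 11.03, 10.83 and 11.32 in the knockdown mice, a difference of means of -1.06. The second was 12.21, 12.16 and 12.19 in wild type and 11.03, 10.80 and 11.15 in knockdown, a difference of -1.20. In both, every knockdown value lay below every wild type value, a pattern seen for 14.4% of all genes tested. They were outside the genes tested, and no test was made of them.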
